A study of Mus musculus with 6 samples.

Results

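Glycolysis and hypoxia response genes were followed here as a set of 32 named genes among the 32284 gene symbols of 6 single-cell libraries from mouse colon tumours. The set was chosen by name: 3 transporters of glucose and lactate, 10 genes of the upper steps of glycolysis and their regulators, 6 genes of the lower steps, 4 genes of mitochondria, and 9 genes of the hypoxia-inducible factor (HIF) system and other hypoxia responses. Every member was found. Aldoa is listed under 2 identifiers with 64600 and 10 transcripts and was summed, and Ero1l is the older symbol of Ero1a. Eno1 has a near-identical copy, Eno1b, which held 538 transcripts against 35061 for Eno1, so a small part of its reads may be assigned to either.

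The study compared immune cells of Control and SOX17KO tumours; SOX17 is a transcription factor of endoderm and gut. Live CD45+ EpCAM- cells were sorted from enzymatically digested colon tumours and sequenced with 10x Genomics 3' chemistry. Each genotype was collected 3 times: a pair of libraries with no time in the labels (the untimed pair), a pair labelled 1 week and a pair labelled 2 weeks. Tumours of 5 mice were pooled per condition, so each library is 1 pool, there is 1 library per genotype and collection, and p-values measure the spread between pooled libraries and not between mice. The cell type in which Sox17 was removed, the allele and the promoter of any Cre were not in the labels used here. Sox17 gave 55 transcripts in all libraries together, so its level in these sorted cells does not check the genotype labels. The CD45 gene Ptprc gave 284226 transcripts and Epcam 1524.

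Hypoxia-inducible factor is a transcription factor whose alpha subunit, HIF-1 alpha (Hif1a), is hydroxylated by oxygen-dependent prolyl hydroxylases, among them Egln3, and is then degraded. When oxygen is low it accumulates and binds promoters at letters such as ACGTG. It raises glucose transporters, glycolytic enzymes, lactate export, kinases that inhibit pyruvate dehydrogenase, mitophagy receptors and the blood vessel growth factor Vegfa. In tumours, macrophages and neutrophils are known to carry this program in poorly perfused areas, and activated T cells raise glycolysis when they divide.

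RefSeq promoter windows of 300 bases on GRCm38.p6, from 250 before to 50 after a transcription start, were found for 29 of the 32 members; Slc2a3, Bnip3l and Ndrg1 were not matched. At least 1 ACGTG on either strand (written ACGTG or CACGT on the printed strand, the palindrome CACGTG counting on both) lay in 24 of their 40 windows, 60%, against 19.6% of all 32851 windows. By gene, 22 of the 29 matched members (75.9%) held it in at least 1 window, against 21.8% of 27025 genes. The members were named partly for being known HIF targets, so this share describes the choice. The related letters GCGTG were in 57.5% of member windows and 32.4% of all windows. No ACGTG was in any window of Eno1, Gpi1, Pdk1, Pfkfb4, Pfkl, Pfkp and Tpi1. That list leaves GCGTG aside. The windows below, at the first listed start site, belong to the 6 members with the largest difference between macrophage classes described next, and to Ldha, whose window held 5 matches, a number reached by 0.183% of all windows. They are printed 5' to 3' on the gene's strand with ACGTG and CACGT in capitals; a match is a description of letters and not of binding.
Egln3, chr12:54203825-54204124, minus strand: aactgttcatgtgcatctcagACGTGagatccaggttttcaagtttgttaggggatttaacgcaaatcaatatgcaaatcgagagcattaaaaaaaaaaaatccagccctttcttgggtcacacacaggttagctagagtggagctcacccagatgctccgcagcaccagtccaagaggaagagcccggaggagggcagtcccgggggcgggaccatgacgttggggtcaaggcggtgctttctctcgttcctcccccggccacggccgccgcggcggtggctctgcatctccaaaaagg
Bnip3, chr7:138909457-138909756, minus strand: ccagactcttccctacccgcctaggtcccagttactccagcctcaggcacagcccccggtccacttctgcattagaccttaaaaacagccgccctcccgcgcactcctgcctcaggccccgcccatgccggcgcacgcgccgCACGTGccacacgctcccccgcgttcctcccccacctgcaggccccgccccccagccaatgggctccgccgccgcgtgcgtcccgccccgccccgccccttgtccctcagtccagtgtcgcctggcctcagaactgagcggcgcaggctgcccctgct
Ero1l (RefSeq symbol Ero1a), chr14:45318523-45318822, minus strand: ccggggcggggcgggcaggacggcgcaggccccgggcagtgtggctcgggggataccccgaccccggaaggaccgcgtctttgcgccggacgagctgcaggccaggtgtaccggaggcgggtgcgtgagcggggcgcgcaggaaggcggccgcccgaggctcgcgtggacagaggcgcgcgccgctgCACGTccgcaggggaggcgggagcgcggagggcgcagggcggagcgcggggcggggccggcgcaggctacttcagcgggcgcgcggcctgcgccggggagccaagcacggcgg
Ankrd37, chr8:45999801-46000100, minus strand: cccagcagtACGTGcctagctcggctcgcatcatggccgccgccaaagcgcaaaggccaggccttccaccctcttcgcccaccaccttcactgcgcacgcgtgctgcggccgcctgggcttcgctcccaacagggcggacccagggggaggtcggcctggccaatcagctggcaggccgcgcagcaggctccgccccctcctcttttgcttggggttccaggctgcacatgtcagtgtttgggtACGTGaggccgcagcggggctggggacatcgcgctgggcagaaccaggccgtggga
Ddit4, chr10:59951721-59952020, minus strand: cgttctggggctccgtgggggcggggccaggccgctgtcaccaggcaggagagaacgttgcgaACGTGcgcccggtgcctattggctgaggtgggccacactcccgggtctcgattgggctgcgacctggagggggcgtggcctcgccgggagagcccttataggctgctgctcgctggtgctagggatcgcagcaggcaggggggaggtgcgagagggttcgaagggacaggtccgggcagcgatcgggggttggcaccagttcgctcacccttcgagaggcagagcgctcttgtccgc
Mif, chr10:75860228-75860527, minus strand: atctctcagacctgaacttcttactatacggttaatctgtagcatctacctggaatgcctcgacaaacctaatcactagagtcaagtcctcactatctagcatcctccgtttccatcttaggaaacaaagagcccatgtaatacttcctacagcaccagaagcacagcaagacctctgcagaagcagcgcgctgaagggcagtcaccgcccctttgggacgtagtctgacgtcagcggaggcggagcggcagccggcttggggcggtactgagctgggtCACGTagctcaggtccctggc
Ldha, chr7:46845554-46845853, plus strand: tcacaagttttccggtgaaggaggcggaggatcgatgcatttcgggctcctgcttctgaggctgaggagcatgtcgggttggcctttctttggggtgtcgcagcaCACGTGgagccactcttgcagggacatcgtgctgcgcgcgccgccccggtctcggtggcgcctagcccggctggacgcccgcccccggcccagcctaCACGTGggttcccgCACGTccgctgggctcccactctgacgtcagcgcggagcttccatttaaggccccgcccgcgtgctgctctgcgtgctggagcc
Of these 7 windows, those of Bnip3 and Ankrd37 hold 2 matches each, Ldha 5, and the other four 1 each.

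Cells were sorted into classes by marker genes, transcripts (unique molecular identifiers, UMIs) were summed per class and library, and levels are given as CPM, the gene's UMIs scaled to 1000000 UMIs of that class in that library. Because 3' counts depend on each gene's end, CPM is compared between classes and libraries for 1 gene and not between genes. Libraries held 18281322 to 52150180 UMIs, 3163 to 7495 barcodes and a median of 3091.5 to 6011 UMIs per barcode. Of 34607 barcodes 33862 passed filters and 26091 (77.1%) fell into a class, 2983 had markers of 2 lineages and were left out, and 4788 matched none; pairs of libraries shared 4 to 13 barcodes. The mix of cells differed between collections: of T cells the untimed pair held 3633 (Control) and 3993 (SOX17KO), beside 207 and 86 mononuclear phagocytes, the 1-week libraries 83 and 130 T cells and 3279 and 4286 phagocytes, and the 2-week libraries 2012 and 715 T cells and 1092 and 876 phagocytes. Unless stated, values are listed in the order Control and SOX17KO at 1 week, then Control and SOX17KO at 2 weeks, with the untimed libraries placed first where they had at least 20 cells of the class.

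Across 21 classes the members had their highest mean level most often in myeloid cells. In 16 of 32 members the highest class was a group of C1q-low phagocytes with high Arg1, the arginase gene, among them Pgk1 (1209.6 ± 298.5 CPM, SD, n = 4), Ldha (857.9 ± 51.8), Gapdh (754.2 ± 225.5), Vegfa (416.0 ± 192.8) and Bnip3 (281.3 ± 99.2). Neutrophils were highest for 5 members, Slc16a3, Slc2a3, Egln3, Hk1 and Pfkfb4. Mast cells and basophils were highest for Ero1l, Ndrg1 and Ddit4, with a wide spread (Ndrg1 1002.9 ± 648.4 CPM, n = 4). Neutrophil markers summed to 3348 to 18830 CPM in that class and to 38994 to 51555 in neutrophils, and their part in these levels was not tested. The rest were highest elsewhere: Hk2 and the collagen prolyl hydroxylase P4ha1 in fibroblasts that passed the sort, Pfkp in type 1 dendritic cells, Pfkfb3 in mature regulatory dendritic cells, Hif1a in CD4 T cells other than regulatory ones, Aldoc in regulatory T cells, Mif in Arg1-high macrophages and Pdk1 in innate lymphoid cells. The class means are over different libraries, the Arg1-high classes over the 4 timed ones and innate lymphoid cells over the untimed pair, so the order mixes classes with collections. In CD8 T cells, for instance, Ldha was at 266 and 168 CPM in the untimed libraries and at 558 and 502 at 2 weeks.

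Neighbours in these orders were rarely separated. Over all members, 640 pairs of neighbouring classes could be compared and in 623 the libraries' ranges overlapped. The highest class stood clear of the next in 4 members: Slc16a3, the lactate exporter MCT4, in neutrophils (716.3 ± 236.9 CPM, n = 5), Hk2, hexokinase 2, in fibroblasts (294.0 ± 109.5, n = 5), Pfkfb3, which makes the activator of phosphofructokinase, in mature regulatory dendritic cells (342.2 ± 141.6, n = 6), and Pkm, pyruvate kinase, in Arg1-high C1q-low phagocytes (1286.5 ± 57.9, n = 4). These counts, and those of highest classes above, were taken over the members alone. No share over all genes stands beside them, so they describe the members only. The map of levels shows these patterns for every member.

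**Figure D1:**
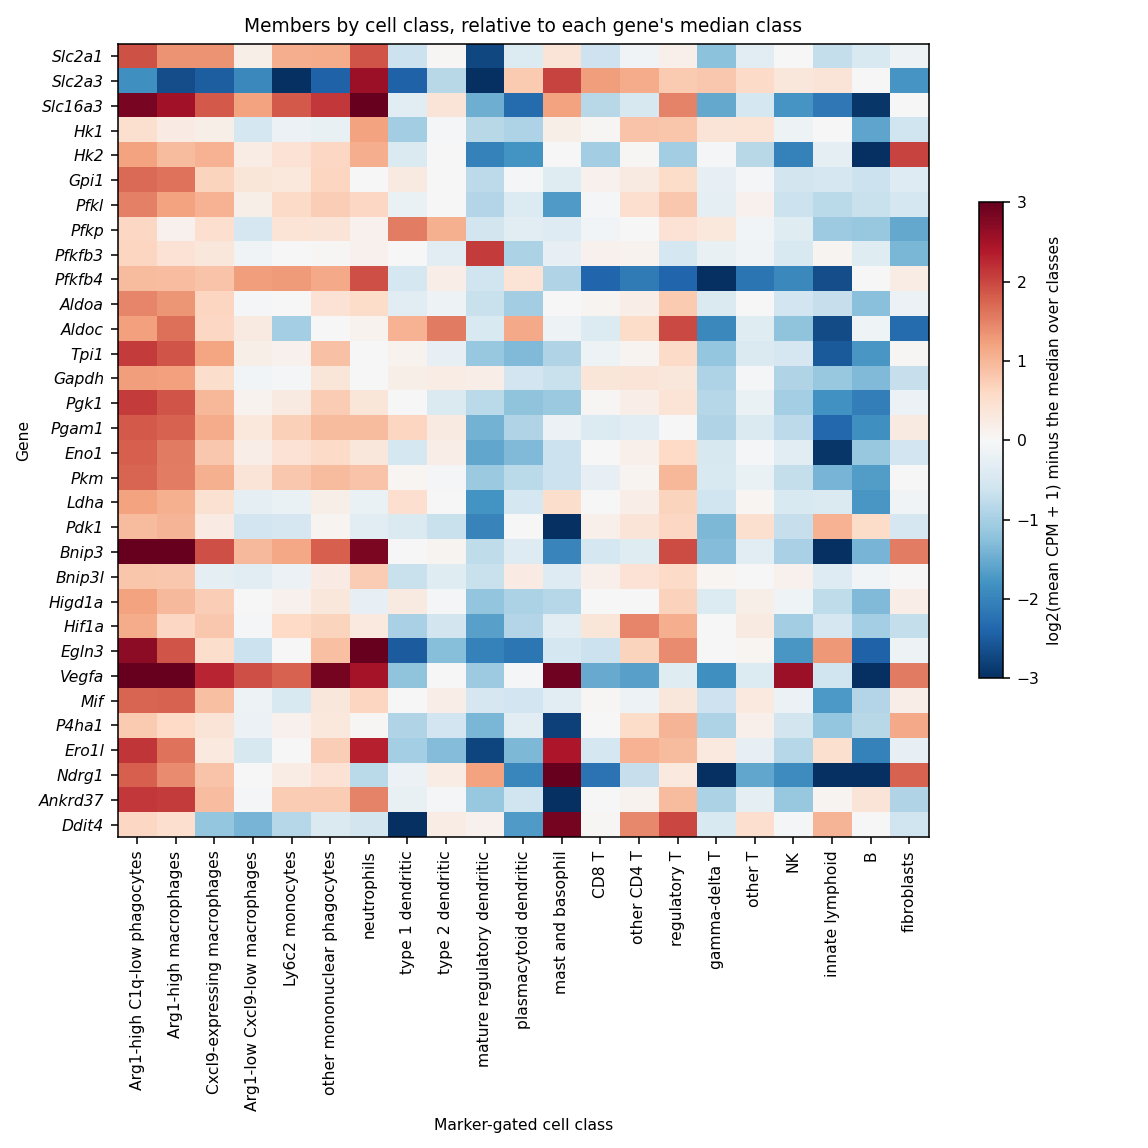
Level of the 32 members in 21 cell classes, as log2 of mean CPM plus 1 minus that gene's median over the classes, limited to 3 in either direction. Rows are genes grouped by role and columns are classes; red cells lie above the gene's median and blue below. Red is densest in the Arg1-high phagocyte classes and in neutrophils.

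Macrophages, defined as mononuclear phagocytes with transcripts of at least 2 of the 3 C1q genes, were divided by Arg1 and by Cxcl9, an interferon-induced chemokine. Arg1-high cells had at least 5 Arg1 UMIs per 10000 and Cxcl9 below that, Cxcl9-expressing cells the reverse, and Arg1-low cells had fewer than 1 of each per 10000. These are ranges of a score and not cell types; phagocytes between the limits (895, 1104, 312 and 198 cells in the timed libraries, with others that met no rule) were kept apart. The thresholds were set after the marker distributions had been seen. Arg1-high cells numbered 458, 703, 145 and 123, Arg1-low cells 414, 476, 113 and 133, and Cxcl9-expressing cells 355, 496, 73 and 57. The untimed libraries had too few for a contrast.

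Almost the whole set was higher in Arg1-high than in Arg1-low macrophages of the same library. Of 31 members tested, 30 passed (edgeR quasi-likelihood test, Benjamini-Hochberg adjusted p under 0.05 over all genes), each of them higher in the Arg1-high class, where 10.6% of all 9135 genes passed and 6.41% were higher. The median log2 difference was 1.31 over the members and 0.0019 over all genes. By role, 2 of 2 transporters, 9 of 10 upper and 6 of 6 lower glycolysis genes, 4 of 4 mitochondrial genes and 9 of 9 HIF and hypoxia genes passed, with medians of 1.33, 1.02, 1.28, 1.40 and 1.80. Slc2a3 was below the filter on low counts.

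The largest difference was in Egln3, the prolyl hydroxylase that is itself raised by HIF. Egln3 was at 56.3, 79.9, 149 and 205 CPM in Arg1-high cells and at 6.28, 11.7, 65.97 and 17.7 in Arg1-low cells, a log2 difference of 2.75 ± 0.24 (SE, adjusted p = 1.83e-06). It was higher in 4 of 4 libraries, though the 2 ranges overlapped because the Arg1-low class of the 2-week Control library reached the level of Arg1-high cells at 1 week. Bnip3, a receptor for the removal of mitochondria, was at 209.7, 215, 192 and 252 CPM against 34.3, 42.9, 53.8 and 48.6, with no overlap (2.46 ± 0.12, adjusted p = 4.43e-09). Ero1l, the oxidase that forms disulphide bonds in the endoplasmic reticulum, was at 322, 387, 375 and 419 CPM against 77.9, 78.6, 129.5 and 97.3 (2.16 ± 0.11, adjusted p = 1.04e-08). Its lowest Arg1-high library lay well above its highest Arg1-low library.

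Ankrd37, a small ankyrin repeat protein induced by HIF, was at 40.4, 46.9, 75.4 and 48.8 CPM against 12.98, 12.3, 14.7 and 10.3 (2.00 ± 0.17). Ddit4, an inhibitor of the growth kinase complex mTORC1, was at 31.3, 33.97, 33.9 and 50.4 CPM against 7.96, 9.78, 14.7 and 14.7 (1.88 ± 0.19). Mif, a secreted cytokine, was at 1054, 1104, 1132 and 1014 CPM against 335, 319, 362 and 314 (1.80 ± 0.07, adjusted p = 1.01e-09). In all 3 genes the classes were fully separated, and Mif varied little between the libraries of a class. The glycolytic kinase Pgk1 differed by 1.74 ± 0.09, lactate dehydrogenase A (Ldha) by 1.30 ± 0.08, the pyruvate dehydrogenase kinase Pdk1 by 1.55 ± 0.17 and the lactate exporter Slc16a3 by 1.37 ± 0.09 on the log2 scale, each without overlap. Vegfa was at 219.9, 249.7, 401 and 369 CPM against 56.5, 41.01, 195 and 245 (1.73 ± 0.23), higher in 4 of 4 libraries with overlapping ranges. Hif1a itself differed least among the HIF genes, by 0.65 ± 0.07. Pfkfb4, an enzyme that sets the activator of phosphofructokinase, was the exception: it was at 22.6, 15.9, 35.8 and 43.9 CPM against 29.3, 26.2, 43.98 and 47.2 and did not pass (-0.35 ± 0.16, adjusted p = 0.228).

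**Figure D2:**
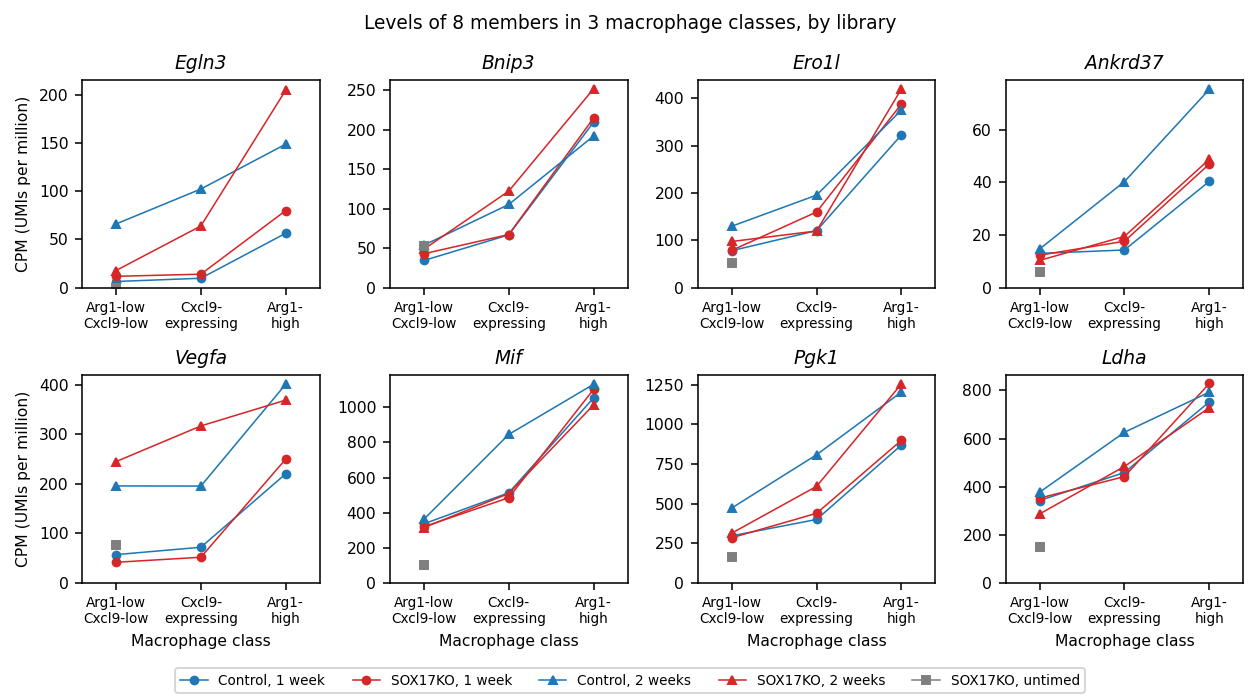
Level in CPM (vertical axis) of 8 members in 3 macrophage classes, 1 point per library with at least 20 cells of the class. Blue is Control and red SOX17KO, circles are 1 week and triangles 2 weeks, lines join the classes of 1 library, and the grey square is the untimed SOX17KO library, which reached 20 cells only in the Arg1-low class. For Bnip3, Ero1l, Ankrd37, Mif, Pgk1 and Ldha every Arg1-high point lies above every Arg1-low point.

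Among 55 other genes of the pathway, 37 were tested in this contrast, 15 were higher and 1 lower. The adenylate kinase Ak4 had 40, 56, 6 and 14 UMIs in Arg1-high cells and 4, 0, 0 and 0 in Arg1-low cells, and the collagen hydroxylase subunit P4ha2 had 47, 87, 4 and 18 against 3, 2, 0 and 1. Ak4 and P4ha2 were thus at 4 UMIs or fewer in each Arg1-low library. Both passed the filter on low counts through the Arg1-high class alone, so their calls are descriptions. The lower gene was Taldo1, transaldolase of the pentose phosphate pathway (-0.33 ± 0.09).

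Depth and other cells' markers differed between the classes. Median UMIs per cell were 6668, 7800, 3175 and 4493 in Arg1-high cells and 5403.5, 6277.5, 3204 and 4821 in Arg1-low cells. The summed neutrophil marker list ranged over 345 to 540 CPM in Arg1-high, 241 to 397 in Arg1-low and 400 to 606 in Cxcl9-expressing cells, against 38994 to 51555 in neutrophils, and the epithelial list over 18.4 to 28.3, 0 to 11.7 and 0 to 17.2. Immediate early genes, a sign of stress during digestion, summed to 5362 to 10435, 6440 to 12485 and 5099 to 9107. The part of these in the result was not tested. Without the 1-week Control library, Pfkfb3 and Hk2 no longer passed, and with no term for library Vegfa did not.

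Against Cxcl9-expressing macrophages the Arg1-high cells were also higher, but for fewer members. Here 21 of 32 members passed, all higher, beside 12.4% of 8877 genes (7.06% higher), and the median was 0.765 against 0.011 for all genes. The contrast uses the same Arg1-high cells as the one above, so the counts are not independent. All 6 lower glycolysis genes, 7 of 9 HIF and hypoxia genes and 3 of 4 mitochondrial genes passed, but 4 of 10 upper glycolysis genes and 1 of 3 transporters did.

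Egln3 was at 9.66, 13.9, 102 and 63.9 CPM in Cxcl9-expressing cells, 2.01 ± 0.24 below Arg1-high cells on the log2 scale (adjusted p = 0.000128), with ranges that overlapped. Ddit4 was at 10.9, 7.20, 12.4 and 13.9 CPM (1.90 ± 0.21 below, adjusted p = 6.51e-05) and Bnip3 at 66.8, 67.2, 105 and 122 (1.49 ± 0.14 below). Neither overlapped with the Arg1-high values given above. Ankrd37 at 14.3, 17.6, 40.3 and 19.5 CPM and Ero1l at 120.2, 159.6, 195 and 119.5 lay 1.40 ± 0.16 and 1.40 ± 0.12 below, also without overlap. Vegfa, at 71.4, 51.2, 195 and 317 CPM, was lower in 4 of 4 libraries (1.44 ± 0.24, adjusted p = 0.00132).

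The members that did not pass in this contrast included the first steps of glucose use. The glucose transporter Slc2a1 was at 204, 166, 138 and 187 CPM in Arg1-high and 132, 132, 257 and 167 in Cxcl9-expressing cells (0.24 ± 0.17, adjusted p = 0.478). Hk2 was at 140.1, 122, 149 and 145 and 109.7, 124, 170.4 and 186 CPM (0.06 ± 0.12, adjusted p = 0.86), lower in the Arg1-high class in 3 of 4 libraries. Platelet-type phosphofructokinase Pfkp was at 309, 246, 251 and 228 and 380.3, 376, 350.1 and 233 CPM (-0.34 ± 0.11, adjusted p = 0.0692), lower in 4 of 4. Without the 2-week SOX17KO library Pfkp passed as lower and P4ha1 as higher; without the 2-week Control library Slc2a1, Higd1a and Pfkl passed; Aldoc and Ndrg1 were lost without either 1-week library. With no term for library, 15 members passed and Egln3 and Vegfa did not. Of 36 other pathway genes 10 were higher, among them the lipid droplet protein Hilpda (2.14 ± 0.14) and P4ha2 (2.12 ± 0.39). The hexose transporter Slc2a6 (-1.23 ± 0.21) and the mitochondrial pyruvate carrier subunit Mpc1 (-0.42 ± 0.11) were lower.

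**Figure D3:**
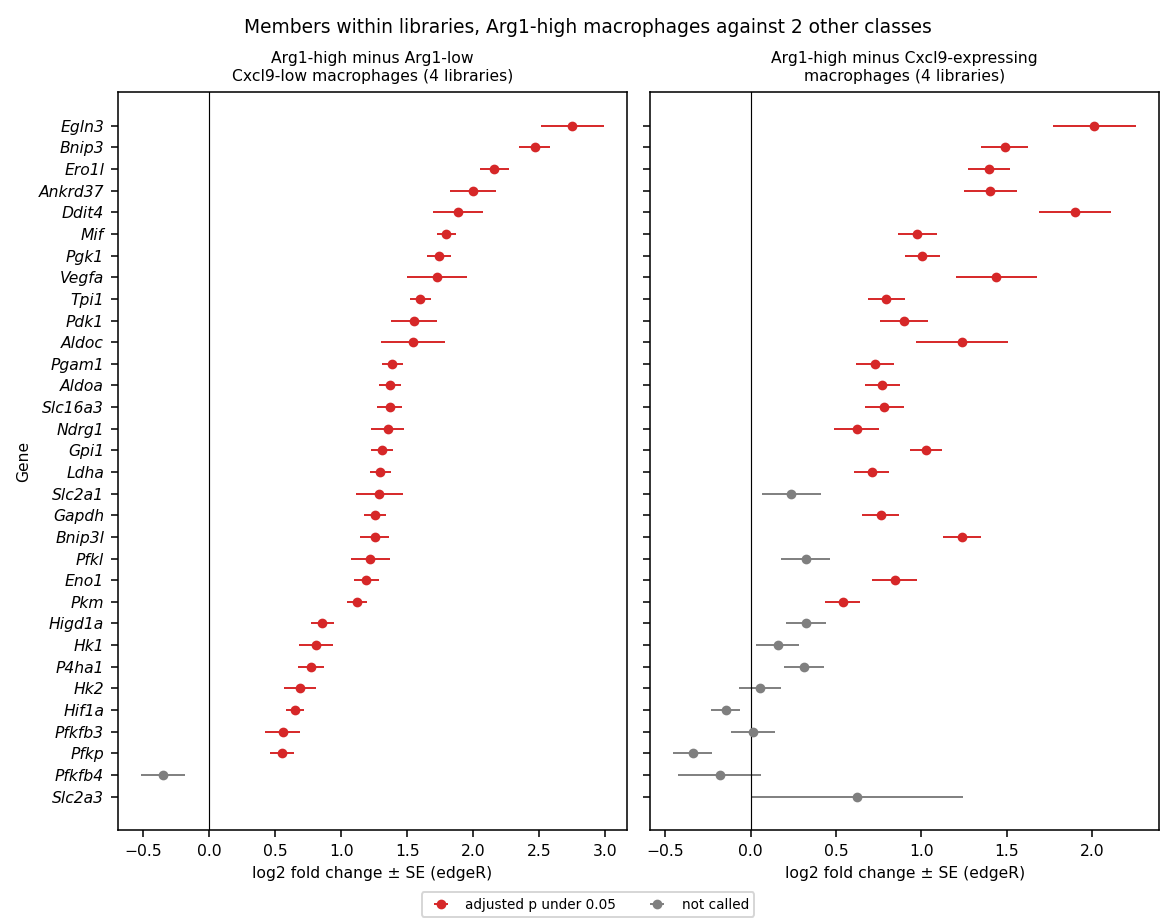
Log2 difference with its standard error (horizontal axis) of each member tested in Arg1-high macrophages against Arg1-low (left) and against Cxcl9-expressing macrophages (right), over 4 libraries. Red points have an adjusted p under 0.05 and grey points do not; 30 members are red on the left and 21 on the right, all to the right of 0.

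Arg1-high phagocytes with little C1q also had higher levels than monocytes for most members. This class (at most 1 C1q gene and at least 5 Arg1 UMIs per 10000; 420, 500, 135 and 124 cells) was set beside Ly6c2 monocytes (at least 2 UMIs of the monocyte marker Ly6c2, at most 1 C1q gene and fewer than 1 Arg1 UMI per 10000; 737, 1007, 314 and 241 cells), a contrast added after the data had been seen. Of 32 members 30 were higher, where 21% of 9077 genes passed and 10.7% were higher, and the median was 1.36. Egln3 was at 71.4, 141, 265 and 382 CPM against 7.26, 13.4, 52.7 and 52.1 in monocytes (2.99 ± 0.15, adjusted p = 3.93e-08). Bnip3 was at 209, 242, 246 and 428 against 31.5, 34.9, 66.6 and 92.03 CPM (2.46 ± 0.14) and Ero1l at 453, 593, 440.3 and 667 against 67.8, 108, 135 and 184 (2.23 ± 0.14). All 3 were separated, and in both classes Egln3 was higher in the 2-week than in the 1-week libraries.

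Vegfa was at 208, 299.5, 546 and 610.4 CPM in the C1q-low phagocytes against 48.4, 46.7, 107 and 197 in monocytes (2.21 ± 0.14, adjusted p = 2.99e-07). Ddit4 was at 21.8, 42.3, 28.1 and 69.9 against 3.63, 7.46, 9.71 and 18.5 CPM (2.24 ± 0.20). Neither overlapped. The brain-type aldolase Aldoc had 31, 44, 2 and 15 UMIs in the C1q-low phagocytes and 8, 12, 2 and 6 in monocytes, 12.7, 13.5, 4.32 and 25.6 against 1.94, 1.83, 1.39 and 4.28 CPM; it passed the filter on low counts through the C1q-low class alone, so its call is a description. Slc2a3 likewise passed the filter through the C1q-low class alone, so its call is a description, and it was lost without the 1-week Control library. The members that did not pass were Pfkp (0.10 ± 0.12) and Pfkfb4 (-0.37 ± 0.14). Of 36 other pathway genes 13 were higher, including P4ha2 (3.87 ± 0.48) and Hilpda (2.83 ± 0.11). The 5 lower genes included lactate dehydrogenase B (Ldhb, -1.10 ± 0.33), Slc2a6 (-0.74 ± 0.20) and Taldo1 (-0.66 ± 0.09). Neutrophil markers summed to 531 to 771 CPM in the C1q-low phagocytes and 557 to 713 in the monocytes, so the ranges overlapped.

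Neutrophils had higher levels of most members than Ly6c2 monocytes of the same library. In 5 libraries (the untimed Control and the 4 timed ones; 331, 214, 584, 144 and 181 neutrophils) 22 of 31 members were higher and 1 lower. Most genes differed between these cell types: 64.6% of 8191 passed, 30.2% higher and 34.4% lower, so the share of members is read against a high background. The median over members was 0.81 and over all genes -0.158. All 3 transporters, 5 of 9 upper and 5 of 6 lower glycolysis genes, 3 of 4 mitochondrial and 6 of 9 HIF and hypoxia genes were higher.

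Slc2a3, the high-affinity glucose transporter GLUT3, was at 364, 114, 239, 216 and 223 CPM in neutrophils, highest in the untimed library, and at 0, 2.18, 4.41, 4.85 and 1.43 in monocytes, where these libraries held 0, 9, 29, 7 and 2 UMIs. It passed the filter on low counts through the neutrophils alone, so its call is a description. Slc16a3 was at 841, 419, 609, 669 and 1043 CPM against 151, 86.7, 105, 141 and 217 (2.81 ± 0.15, adjusted p = 1.87e-10), with no overlap. Egln3 was at 346, 323, 429, 238 and 153 against 36.7, 7.26, 13.4, 52.7 and 52.1 CPM (3.97 ± 0.45, adjusted p = 1.32e-06), also separated. Ero1l was at 546, 525, 1009, 475 and 504 against 112, 67.8, 108, 135 and 184 CPM (2.82 ± 0.23) and hexokinase 1 (Hk1) at 67.5, 130.0, 155, 149.6 and 114 against 31.3, 47.4, 46.1, 46.5 and 59.2 (1.87 ± 0.18). Neither overlapped, and for Ero1l the 1-week SOX17KO library stood highest among neutrophils. Bnip3 was at 88.7, 168, 299, 185 and 112 against 38.1, 31.5, 34.9, 66.6 and 92.03 CPM (2.25 ± 0.31), higher in 5 of 5 libraries with ranges that overlapped.

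The lower member was Ndrg1, a stress-induced gene, at 16.2, 73.98, 109, 57.2 and 80.5 CPM in neutrophils against 46.3, 152, 159, 178 and 161 (-0.59 ± 0.20, adjusted p = 0.0154). It did not pass without the untimed Control library or without the 2-week Control library, and leaving out single libraries gave 17 to 25 members in all. Of 32 other pathway genes 8 were higher, led by Hilpda (3.04 ± 0.22), the circadian repressor Bhlhe40 (2.61 ± 0.16) and Slc2a6 (2.35 ± 0.22), and 8 lower. Among the latter, Ldhb had 3, 0, 0, 0 and 1 UMIs and the monocarboxylate transporter Slc16a1 0, 1, 6, 0 and 0 UMIs in neutrophils. These 2 genes passed the filter on low counts through the monocytes alone, so their calls are descriptions. Neutrophils had a median of 1372 to 2154 UMIs per cell and monocytes 4322.5 to 6880.5, and the part of this gap was not tested.

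Monocytes and Arg1-low macrophages were closer to each other. Of 31 members 9 were higher in monocytes and 1 lower, a share near the 30.3% of 9407 genes that passed (15.6% higher and 14.7% lower). The higher members included Pfkp at 397, 358, 300.3 and 298 CPM against 199, 201, 198 and 155 (0.98 ± 0.10), Slc2a1 at 125, 132, 137 and 145 against 75.4, 72.9, 144 and 48.6 (0.89 ± 0.16) and Hif1a at 694, 718, 863 and 1111 against 524, 491, 772 and 547 (0.65 ± 0.11). Pfkp was separated, while for Slc2a1 the 2-week Control library ran the other way and for Hif1a the ranges overlapped. Hk1 (0.53 ± 0.13), Slc16a3 (0.48 ± 0.14) and Pkm (0.42 ± 0.09) were also higher. Aldoc was lower, 1.94, 1.83, 1.39 and 4.28 against 4.61, 5.68, 7.33 and 10.3 CPM (-1.37 ± 0.43). It passed the filter on low counts through the Arg1-low class alone, so its call is a description. Hk1 and Aldoc were lost without the 1-week Control library, Aldoc and Ero1l without the 1-week SOX17KO library, and Slc16a3 and Ero1l without the 2-week SOX17KO library; without the 2-week Control library Hk2, Mif and Egln3 were added. With no term for library, 4 members passed. Of 35 other pathway genes 10 were higher in monocytes, among them the nitric oxide synthase Nos2 (0.89 ± 0.22), Slc16a1 (0.84 ± 0.23) and Taldo1 (0.64 ± 0.10), and 4 lower, among them the haem oxygenase Hmox1 (-1.23 ± 0.21) and the transferrin receptor Tfrc (-1.17 ± 0.24).

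Mature regulatory dendritic cells, the Ccr7-type cells that carry antigen to lymph nodes, had lower levels of most glucose-use genes than type 2 dendritic cells. Over all 6 libraries (59, 20, 60, 67, 49 and 29 mature regulatory cells) 18 of 32 members were lower and 2 higher; 49.8% of 7627 genes passed (25.6% lower and 24.1% higher). All 3 transporters, 6 of 10 upper and 4 of 6 lower glycolysis genes were lower. The calls of the transporters Slc2a1 and Slc2a3 are descriptions, as set out below. Slc2a1 was at 10.9, 7.02, 14.5, 6.41, 17.2 and 0 CPM against 75.1, 40.9, 89.4, 63.4, 66.5 and 77.99 in type 2 cells (-2.61 ± 0.31), with no overlap. It passed the filter on low counts through the type 2 cells alone, so its call is a description. Ldha was at 69.9, 28.1, 196, 143, 100.2 and 92.4 against 354, 169, 440.0, 478, 427 and 342 CPM (-1.64 ± 0.18, adjusted p = 2.82e-06), lower in 6 of 6 libraries. Hk2 (-2.18 ± 0.34), Aldoc (-1.78 ± 0.49) and Slc16a3 (-1.76 ± 0.31) were lower too, and Slc2a3 had no UMI in the 4 timed libraries of mature regulatory cells, which allows up to 4.80 to 13.2 CPM at 3 counts. Those 4 libraries could not have brought Slc2a3 past the filter on low counts, so its call is read as a description too.

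The 2 higher members were Pfkfb3 and Ndrg1. Pfkfb3 was at 225, 197, 288, 338, 429 and 576 CPM in mature regulatory cells against 62.4, 66.4, 42.8, 35.7, 54.6 and 116 (2.74 ± 0.21, adjusted p = 6.98e-08), fully separated. Ndrg1 was at 279.7, 218, 288, 415, 263 and 189 against 67.02, 123, 201, 159, 104 and 178 CPM (1.27 ± 0.22), higher in 6 of 6 libraries. Of 30 other pathway genes 7 were higher and 13 lower. Among the former the muscle enolase Eno3 had 130, 13, 88, 51, 48 and 24 UMIs against 2, 11, 33, 14, 2 and 9. Among the latter were the ADP-dependent glucokinase Adpgk (-2.59 ± 0.43), Tfrc (-2.49 ± 0.39) and glucose-6-phosphate dehydrogenase (G6pdx, -1.71 ± 0.35). Cycling markers summed to 22.0 to 226 CPM in mature regulatory against 194 to 1155 in type 2 cells. Immediate early genes summed to 2656 to 4273 in mature regulatory against 3471 to 7457 in type 2 cells. The part of both lists was not tested. Between 16 and 22 members passed when single libraries were left out. Hk1 was lost without the untimed or the 2-week Control library or either timed SOX17KO library, and Mif without any of the 3 Control libraries or the 2-week SOX17KO library.

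Dividing CD8 T cells had more of the lower glycolysis transcripts than non-dividing ones. Cycling cells, with at least 4 of 10 cell cycle genes, numbered 113 and 42 in the untimed and 341 and 74 in the 2-week libraries. Of 31 members 9 were higher and 3 lower, where 30.6% of 10688 genes passed (15.6% higher and 15% lower); all 6 lower glycolysis genes were among the higher. In the order untimed Control and SOX17KO, then 2-week Control and SOX17KO, triose phosphate isomerase (Tpi1) was at 169.8, 76.2, 359 and 329.8 CPM against 93.9, 35.6, 162 and 166 (1.00 ± 0.12, adjusted p = 1.25e-05). Ldha was at 382, 182, 712 and 685 against 234, 168, 356 and 355 CPM (0.71 ± 0.15) and Pgk1 at 256, 135, 559 and 539 against 163, 90.8, 316 and 334 (0.67 ± 0.12). Each was higher in 4 of 4 libraries but ranges overlapped, the untimed SOX17KO library being lowest in both classes.

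Pgam1 (0.72 ± 0.13), Eno1 (0.72 ± 0.14) and Mif (0.66 ± 0.11) were also higher in cycling cells. Bnip3l, a mitophagy receptor, was lower at 92.1, 108, 86.99 and 88.3 CPM against 121, 139, 113 and 132 (-0.45 ± 0.12), without overlap, and Pfkfb3 (-0.37 ± 0.12) and P4ha1 (-0.33 ± 0.12) were lower by less. With no term for library 0 members passed (Gapdh had an adjusted p of 0.063), and Pfkfb3, P4ha1 and Ero1l were lost without the untimed Control library or either 2-week library. Cycling cells had a median of 7237.5 to 12804 UMIs against 3272.5 to 5542 in non-cycling cells; the part of this depth was not tested.

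Regulatory T cells had more of 3 members than other CD4 T cells, beside 7.27% of all genes called (3.12% higher). Slc16a3 was at 35.4, 110.1, 148 and 108 CPM against 14.5, 12.4, 25.6 and 57.4 (1.73 ± 0.30, adjusted p = 0.00145). Bnip3 was at 16.3, 11.01, 70.6 and 145 against 13.7, 6.19, 17.05 and 33.6 CPM (1.39 ± 0.33, adjusted p = 0.0148) and Egln3 at 70.01, 88.04, 132 and 111 against 30.4, 20.9, 57.3 and 98.6 (0.95 ± 0.23, adjusted p = 0.0178). All were higher in 4 of 4 libraries with overlapping ranges. The untimed SOX17KO library had 26 regulatory T cells with 90867 UMIs in all. Its Bnip3 level of 11.01 CPM thus rested on very few UMIs. Between 1 and 5 members passed when single libraries were left out: without the 2-week Control library Slc16a3 was the sole member, without the 2-week SOX17KO library Bnip3 was lost, without the untimed SOX17KO library Egln3 was lost, and without the untimed Control library Hk2 and Hif1a were added. With no term for library 0 passed.

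Mononuclear phagocytes as a whole differed from T cells in 26 of 32 members, a share to be read against 64.5% of 12574 genes (31.9% higher and 32.6% lower). Of these 24 were higher in phagocytes, led by Vegfa at 227, 171, 110.3, 126, 253 and 309 CPM against 6.82, 19.9, 53.3, 12.8, 11.3 and 4.94 (4.34 ± 0.59) and Pfkfb4 at 38.04, 34.2, 25.6, 27.9, 39.8 and 39.5 against 2.45, 2.28, 5.71, 2.55, 1.90 and 2.68 (4.31 ± 0.23). Both were separated in all 6 libraries. Slc16a3 (2.89 ± 0.29), Bnip3 (2.36 ± 0.26), Ndrg1 (2.02 ± 0.32) and Slc2a1 (1.77 ± 0.23) were higher in phagocytes in 6 of 6 libraries. Slc2a3 ran the other way, 5.43, 22.8, 4.28, 4.41, 5.78 and 4.25 CPM in phagocytes against 57.2, 82.4, 26.6, 44.6, 94.9 and 115 in T cells (-3.11 ± 0.29, adjusted p = 7.50e-06), and Ddit4 was the other lower member (-0.74 ± 0.20). Without the untimed SOX17KO library Ldha, Mif and Hif1a also passed, and leaving out single libraries gave 20 to 29 members.

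The 1-week and 2-week collections were compared within each class; time and the collection's handling cannot be told apart. Ly6c2 monocytes had the most members that differed: 14 of 31 were higher at 2 weeks and 1 lower, beside 15.2% of 9126 genes (6.47% higher and 8.76% lower). That fit had 1 residual degree of freedom. Egln3 was at 7.26 and 13.4 at 1 week against 52.7 and 52.1 at 2 weeks (CPM, Control then SOX17KO; log2 difference 2.21 ± 0.25, adjusted p = 1.58e-06). Vegfa was at 48.4 and 46.7 at 1 week against 107 and 197 at 2 weeks (1.52 ± 0.19, adjusted p = 6.38e-06). Bnip3 was at 31.5 and 34.9 at 1 week against 66.6 and 92.03 at 2 weeks (1.13 ± 0.18). In these 3 both 2-week libraries lay above both 1-week libraries.

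Ddit4 was at 3.63 and 7.46 at 1 week against 9.71 and 18.5 at 2 weeks (1.23 ± 0.36, adjusted p = 0.0216), Ankrd37 at 13.3 and 12.6 at 1 week against 31.9 and 24.97 at 2 weeks (1.00 ± 0.26) and liver-type phosphofructokinase Pfkl at 30.7 and 43.5 at 1 week against 71.4 and 72.1 at 2 weeks (0.84 ± 0.19). Pfkp was the lower member, at 397 and 358 at 1 week against 300.3 and 298 at 2 weeks (-0.45 ± 0.14, adjusted p = 0.0269), so the 2 phosphofructokinase isoforms moved in opposite directions. By role, 6 of 9 HIF and hypoxia genes, 2 of 4 mitochondrial, 3 of 9 upper and 2 of 6 lower glycolysis genes and 1 of 3 transporters were higher. Median UMIs per monocyte were 5627 and 6423 at 1 week and 4322.5 and 5819 at 2 weeks. DESeq2 called 6 members (Gapdh, Bnip3, Slc16a3, Ero1l, Vegfa and Pgk1) and gave no adjusted p for Egln3, Ankrd37 and Ddit4. Of 33 other pathway genes the prolyl hydroxylase Egln1 (0.69 ± 0.18) and the lipid droplet gene Plin2 (0.49 ± 0.14) were higher, and Pdk3 (-0.71 ± 0.19) and the hexokinase Hk3 (-0.46 ± 0.15) lower.

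Egln3 and Vegfa were higher at 2 weeks in each of the other 4 Arg1- or Cxcl9-defined phagocyte classes as well. For Egln3 the log2 difference was 1.39 ± 0.18 in Arg1-high macrophages, 1.99 ± 0.42 in Arg1-low, 2.72 ± 0.38 in Cxcl9-expressing macrophages and 1.61 ± 0.21 in Arg1-high C1q-low phagocytes. For Vegfa it was 0.73 ± 0.19, 2.21 ± 0.23, 2.03 ± 0.27 and 1.16 ± 0.21. All genes called were 4.67%, 6.17%, 3.04% and 4.18% of those tested in these classes, and those called higher 2.51%, 3.15%, 1.49% and 1.96%. Each of these fits also had 1 residual degree of freedom. In mononuclear phagocytes as a whole no member passed (3 had an unadjusted p under 0.05), beside 0% of all genes; that fit holds the untimed libraries too. Glyceraldehyde phosphate dehydrogenase (Gapdh) was higher at 2 weeks in Arg1-high macrophages (0.77 ± 0.20), but not with genotype left out of the fit. The calls for Egln3 and Vegfa did not all hold either. In Arg1-low macrophages Egln3 was at 6.28 and 11.7 at 1 week against 65.97 and 17.7 at 2 weeks, the 2-week Control library being the highest. It did not pass there with genotype left out of the fit, at no more than 5% mitochondrial UMIs or without the top 5% of UMI totals. DESeq2 gave no adjusted p for Egln3 in the Arg1-low and Cxcl9-expressing classes and did not call Vegfa in Arg1-high macrophages.

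In neutrophils most of the members that differed were lower at 2 weeks: 7 of 30 were lower and 1 higher, beside 9.85% of 4113 genes (5.57% lower and 4.28% higher). This fit too had 1 residual degree of freedom. Mif was at 738 and 945 at 1 week against 268 and 236 at 2 weeks (-1.73 ± 0.24, adjusted p = 2.79e-10). The mitochondrial protein Higd1a was at 130.0 and 186 at 1 week against 57.2 and 62.3 at 2 weeks (-1.39 ± 0.33) and Bnip3l at 211 and 294 at 1 week against 79.2 and 132 at 2 weeks (-1.22 ± 0.28). Both 2-week libraries lay below both 1-week libraries in each. Egln3 was at 323 and 429 at 1 week against 238 and 153 at 2 weeks (-0.98 ± 0.25), the opposite sign to monocytes, though the difference between the cell types was not tested. P4ha1 was at 112 and 225 at 1 week against 79.2 and 90.9 at 2 weeks (-0.97 ± 0.31) and Tpi1 at 224 and 268 at 1 week against 172 and 104 at 2 weeks (-0.89 ± 0.27), while Slc16a3 was higher, at 419 and 609 at 1 week against 669 and 1043 at 2 weeks (0.74 ± 0.22). Aldolase A (Aldoa) was the other lower member (-0.70 ± 0.23). DESeq2 called Mif alone and, with genotype left out of the fit, 2 members passed. The other pathway genes Fam162a (-1.62 ± 0.28), Hilpda (-1.15 ± 0.24) and Hmox1 (-1.64 ± 0.33) were lower too, 3 of 22 tested.

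**Figure D4:**
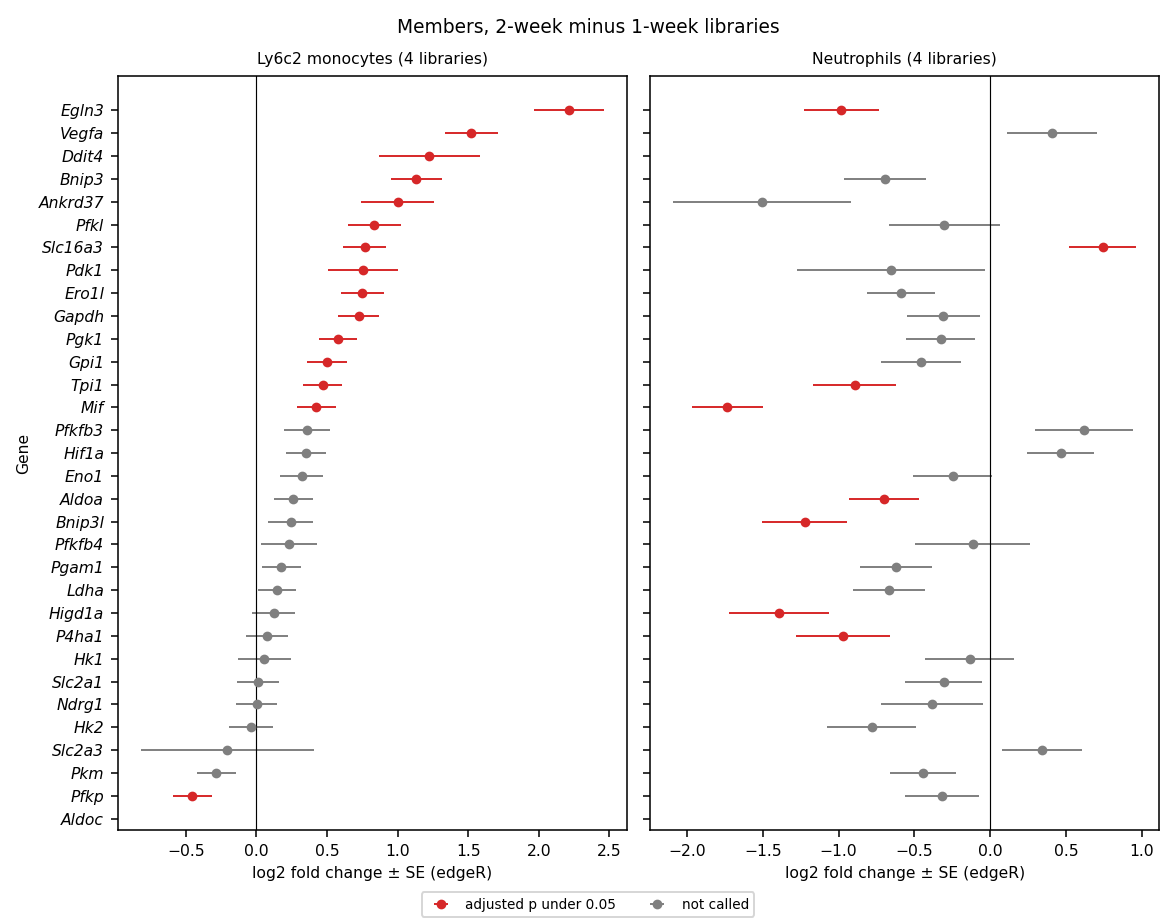
Log2 difference between the 2-week and the 1-week collection with its standard error (horizontal axis) for each member tested, in Ly6c2 monocytes (left) and neutrophils (right). Red points have an adjusted p under 0.05: 14 lie to the right and 1 to the left of 0 in monocytes, 1 to the right and 7 to the left in neutrophils.

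Mif and Higd1a were lower at 2 weeks in other classes as well. In natural killer (NK) cells Mif was at 449 and 445 at 1 week against 269 and 291 at 2 weeks (-0.88 ± 0.19) and Higd1a differed by -0.81 ± 0.21, beside 6.76% of genes called (5.04% lower), and neither passed when any single timed library was left out. In fibroblasts Higd1a (-1.64 ± 0.28), Mif (-1.15 ± 0.20), Ldha (-1.09 ± 0.19) and Pgam1 (-0.94 ± 0.20) were lower (3.41% of genes called, 2.39% lower), and in regulatory T cells Higd1a (-1.33 ± 0.39) and Pkm (-0.79 ± 0.24) (5.91%, 3.95% lower). With genotype left out of the fit none of these 4 passed in fibroblasts and neither passed in regulatory T cells. The fibroblast fit had 1 residual degree of freedom. In regulatory T cells neither passed by DESeq2, at no more than 5% mitochondrial UMIs, with the stricter gate or without the top 5% of UMI totals, and without single libraries 0 or 1 of them passed. Slc2a3 was higher at 2 weeks in T cells, 26.6 and 44.6 at 1 week against 94.9 and 115 at 2 weeks (1.52 ± 0.24, adjusted p = 0.0445; 0.8% of genes called, 0.238% higher), and passed in 1 of the 4 fits that left out a timed library, the one without the 2-week SOX17KO library. The mix of T cells differed as well: 1-week T cells included 6 CD8 cells among 83 in Control and 18 among 130 in SOX17KO, while the 2-week libraries had 1006 among 2012 and 278 among 715, with Slc2a3 at 98.7 and 124 CPM in those CD8 cells. CD8 markers summed to 28.5 to 808 CPM over the T cell libraries and Arg1 was at 2.15 to 224 CPM. The part of this mix in the Slc2a3 difference was not tested. No member passed by edgeR in dendritic cells, their type 1, type 2 and mature regulatory classes, the remaining phagocytes or the remaining T cells, where 1 to 8 members had an unadjusted p under 0.05. The genes called there were 0%, 0.209%, 0.013%, 0.0375%, 0.0374% and 0.0923% in the same order. DESeq2 called 1 member in the remaining T cells and 1 in the remaining phagocytes. Over all gated cells together, Slc2a3 was higher (log2 difference 1.98 ± 0.25) and Higd1a (-0.87 ± 0.16) and Mif (-0.73 ± 0.17) lower, where 17.5% of genes passed (10.3% higher and 7.17% lower) and the mix of classes differed.

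The genotype comparison, SOX17KO minus Control with collection in the fit, asked whether immune cells of SOX17KO tumours had other levels of these genes. No member passed in any of 22 fits, broad classes and all gated cells included, by edgeR or by DESeq2. Few genes of any kind did: 0% of 12998 genes in T cells, of 10777 in mononuclear phagocytes and of 9878 in dendritic cells, 0.061% in NK cells, 0.222% in regulatory T cells, 0.23% in Ly6c2 monocytes and at most 0.802% (neutrophils). At an unadjusted p under 0.05 there were 4 of 32 members in T cells beside 1108 of 12998 genes, 3 of 28 in NK cells beside 412 of 8198, and 1 of 27 in regulatory T cells beside 344 of 4504. Monocytes had 7 of 31 members beside 478 of 9126 genes and neutrophils 5 of 30 beside 351 of 4113, both in fits with 1 residual degree of freedom, while mononuclear phagocytes and dendritic cells had 0 of 32 beside 170 of 10777 and 755 of 9878. With 3 pairs of pooled libraries this does not show that the levels were alike, and values per pair follow, mainly for classes with all 3 pairs. Monocytes and neutrophils had enough cells for a pair only at 1 week and 2 weeks, so their members are not named. The median log2 ratio over members in these pairs was 0.07 and 0.13 in monocytes and 0.53 and -0.14 in neutrophils.

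Hk2 in T cells had the smallest p among the T cell members. It was at 20.1 in Control and 67.1 in SOX17KO CPM in the untimed pair (502 and 1090 UMIs), 32.3 in Control and 90.5 in SOX17KO at 1 week (17 and 71 UMIs) and 38.3 in Control and 57.5 in SOX17KO at 2 weeks (525 and 279 UMIs). The log2 ratios were 1.74 (95% interval 1.58 to 1.89), 1.49 (0.71 to 2.34) and 0.58 (0.37 to 0.80); the intervals cover counting error only. SOX17KO was thus the higher in 3 of 3 pairs, and the fitted difference was 1.28 ± 0.28 (adjusted p = 0.508). The adjusted p was 0.0775 by DESeq2 and 2.41e-06 when genes with low counts were not filtered out, and over the alternatives the log2 difference ran from 0.83 to 1.72. The T cell mix differed within the pairs: CD8 cells were 1149 of 3633 T cells in the untimed Control library and 2762 of 3993 in SOX17KO. At 1 week, 25 of the 71 SOX17KO UMIs of Hk2 came from 18 CD8 cells, beside 1 UMI in 6 CD8 cells of Control. Within non-cycling CD8 T cells Hk2 was at 13.9 in Control and 61.4 in SOX17KO in the untimed pair and at 23.5 in Control and 22.7 in SOX17KO at 2 weeks, so the pairs differed. In other CD4 T cells it was at 22.1 in Control and 64.2 in SOX17KO and 74.4 in Control and 129 in SOX17KO.

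Other T cell members with 1 direction in 3 of 3 pairs did not pass either. Tpi1 was lower in SOX17KO, at 124 in Control and 44.4 in SOX17KO in the untimed pair, 257 in Control and 165 in SOX17KO at 1 week and 255 in Control and 243 in SOX17KO at 2 weeks (-0.70 ± 0.24, adjusted p = 0.52). Slc2a3 was at 57.2 in Control and 82.4 in SOX17KO, 26.6 in Control and 44.6 in SOX17KO and 94.9 in Control and 115 in SOX17KO (0.51 ± 0.18). Pgam1 was at 99.99 in Control and 60.7 in SOX17KO, 226 in Control and 165 in SOX17KO and 177 in Control and 167 in SOX17KO (-0.38 ± 0.16). The gap in Tpi1 narrowed to near 0 in the 2-week pair. Ankrd37 was lower in each pair from low counts (-0.48 ± 0.25). In all, 2 members were higher and 6 lower in 3 of 3 pairs, against 13.4% and 18.8% of all genes. With the filter on low counts removed, Tpi1 passed in T cells (adjusted p = 0.0174), and Hk2 (0.00217), Ero1l (0.0113) and Ndrg1 (0.00135) in other CD4 T cells.

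In NK cells Ero1l was at 31.2 in Control and 94.2 in SOX17KO, 48.7 in Control and 59.7 in SOX17KO and 61.1 in Control and 104 in SOX17KO (0.75 ± 0.25, adjusted p = 0.769) in the untimed, 1-week and 2-week pairs. Slc2a3 was at 31.2 in Control and 13.5 in SOX17KO, 76.97 in Control and 43.3 in SOX17KO and 72.9 in Control and 55.7 in SOX17KO (-0.65 ± 0.24). Its untimed SOX17KO value came from 2 UMIs in 39 cells. Hk2 was at 4.88 in Control and 40.4 in SOX17KO, 11.00 in Control and 17.6 in SOX17KO and 10.6 in Control and 16.2 in SOX17KO (1.17 ± 0.54), from few UMIs. Each had 1 direction in 3 of 3 pairs and none passed. Ndrg1 (0.48 ± 0.29) and Ldha (0.18 ± 0.18) were likewise higher in each pair, though Ldha was at 129 in Control and 135 in SOX17KO, 375 in Control and 378 in SOX17KO and 253 in Control and 347 in SOX17KO, so that the gap lay in the 2-week pair and the fitted difference was near 0 without it (-0.000741). NK cells had 4 such higher and 1 such lower member of 28, against 15.2% and 12.2% of all genes.

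In dendritic cells Mif (-0.38 ± 0.16) and Slc16a3 (-0.46 ± 0.22) were lower and Ero1l (0.45 ± 0.21) and Pdk1 (0.52 ± 0.26) higher in SOX17KO in 3 of 3 pairs, with none past the threshold. In all, 4 members were higher and 4 lower in each pair, of 31, against 19% and 14.6% of all genes. Mononuclear phagocytes had 2 members higher and 2 lower in each pair, of 31, against 21.5% and 11.2% of all genes. The lower ones were Pfkp (-0.42 ± 0.22) and Pkm (-0.41 ± 0.26). Both were higher in monocytes than in Arg1-low macrophages, and the untimed pair differed in its share of these classes, as given below. The part of this mix was not tested. In regulatory T cells 4 of 28 were lower in each pair and 0 higher, against 12.9% and 16.3% of all genes; the lower ones included Ero1l at 164 in Control and 66.03 in SOX17KO, 399 in Control and 238 in SOX17KO and 318 in Control and 236 in SOX17KO (-0.74 ± 0.27) and Hif1a (-0.35 ± 0.19). The untimed SOX17KO library had 26 regulatory T cells against 448 in Control.

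The pairs did not move the set together. The median log2 ratio over members in the untimed, 1-week and 2-week pairs was -0.46, -0.47 and 0.22 in T cells, -0.80, 0.05 and 0.11 in mononuclear phagocytes, -0.63, 0.03 and 0.02 in dendritic cells, and -0.02, -0.04 and 0.41 in NK cells. The untimed pair was the lowest or near it in the first 3 of these. Its phagocytes were few, 207 in Control and 86 in SOX17KO, with a median of 6540 and 3386.5 UMIs per cell. Their make-up differed as well. Control had 108 Ly6c2 monocytes and 8 Arg1-low macrophages among them, and SOX17KO 9 and 47. The part of these differences in the ratios was not tested. Whether the genotype difference itself differed between T cells and mononuclear phagocytes was tested with an interaction term: no member passed among 32 (Hk2 1.48 ± 0.48, unadjusted p = 0.0128, adjusted p = 1), beside 0% of 12574 genes, with 399 genes at an unadjusted p under 0.05 and 0 members by DESeq2.

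**Figure D5:**
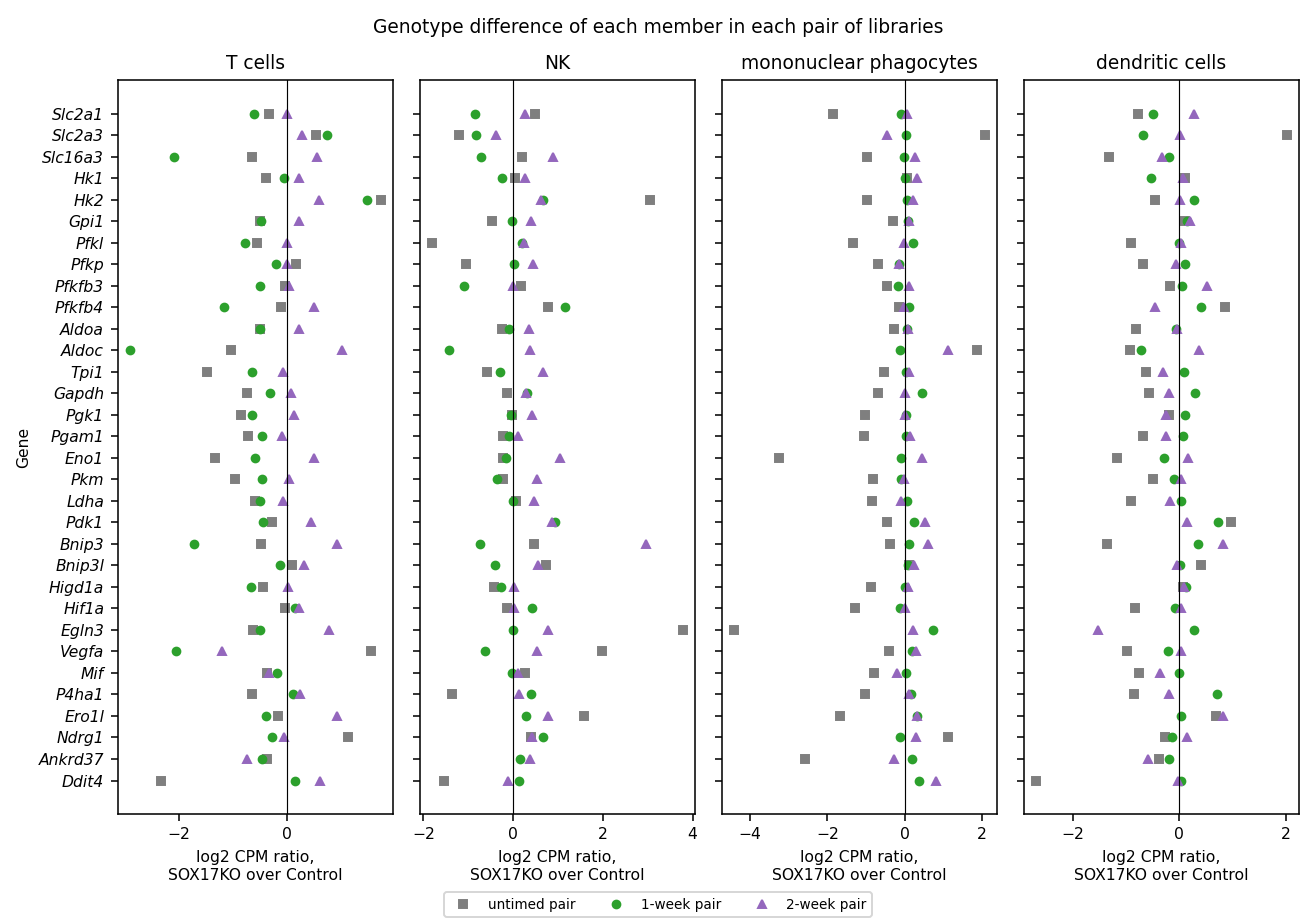
Log2 ratio of CPM, SOX17KO over Control (horizontal axis), of each member in T cells, NK cells, mononuclear phagocytes and dendritic cells, 1 point per pair: grey untimed, green 1 week, purple 2 weeks. Points where a library had 0 UMIs are not drawn. In T cells the 3 Hk2 points lie to the right of 0, and the grey points of mononuclear phagocytes lie mostly to the left.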

How the data were processed

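Single-cell libraries of CD45+ EpCAM- cells from mouse colon tumours were used, 6 in all. The authors deposited raw UMI counts per gene and barcode, per the file headers; the submitters' processing notes name Cell Ranger 6.0.1 and the genome mm10, while the matrix header names version 7.0.1. Barcodes with at least 200 genes and at most 10% mitochondrial UMIs were kept, with 18281322 to 52150180 UMIs per library. No clustering was used: cells were assigned to classes by marker genes, and cells with markers of 2 lineages, which include doublets, were left out. Class thresholds were set after marker distributions had been seen. The members and the lists of markers and other pathway genes were chosen with earlier results of these data known.

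UMIs were summed per class and library with at least 20 cells, and levels are CPM with SD over libraries or exact Poisson intervals (95%, counting error only). Differences were tested with edgeR 4.0.16 in R 4.3.3 (quasi-likelihood test, TMM scaling, filterByExpr, Benjamini-Hochberg over all genes of the fit, adjusted p 0.05). Class contrasts carried a term for library, since both classes come from the same pool; genotype fits carried collection, and collection fits carried genotype. A contrast was fitted where classes had enough cells; the untimed libraries stayed in collection fits where they did. Pairs of Control and SOX17KO share a labelled collection, not an animal. The genotype ratio of a pair has an exact conditional binomial interval. Alternatives were DESeq2 1.42.0, upper-quartile scaling, no filter on low counts, at most 5% mitochondrial UMIs, a stricter gate, leaving out the top 5% of UMI totals, no block, and leaving out libraries or pairs. The fits were tested on simulated data. Python 3.11.15 with numpy 2.4.6, pandas 2.3.3, scipy 1.17.1 and matplotlib 3.10.9 did the rest.

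Named members were, in each class or collection contrast, up to 6 past the threshold in each direction by size of difference; in the genotype comparison, those past the threshold and otherwise up to 5 per class with 1 direction in all 3 pairs; and up to 3 other pathway genes per direction, of which a gene that met the rule is not reported here. Members named beyond this rule were chosen after their values were seen. Promoter windows come from RefSeq on GRCm38.p6.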

Additional observations from a re-analysis of the deposited data

Results flagged for a closer look

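In 4 cases, differences between classes stood out because every pair of libraries moved one way in one class and every pair the opposite way in the other; none of these differences between classes was tested. The mean log2 ratio of SOX17KO over Control for Ero1l was 0.89 in NK cells and -0.83 in regulatory T cells, a gap of 1.71, and 0.51 in dendritic cells, a gap of 1.34 to regulatory T cells. For Slc2a3 it was 0.52 in T cells and -0.81 in NK cells, a gap of 1.33. For Ldha it was 0.18 in NK cells and -0.39 in T cells, a gap of 0.57. Ldha in NK cells went from 129 CPM in Control to 135 in SOX17KO among the untimed libraries, from 375 to 378 in the 1-week ones and from 253 to 347 in the 2-week ones, and without the 2-week pair the fitted sign turned (-0.000741). None of these members passed the genotype test in any of the classes named, and regulatory T cells numbered 22 to 448 per library. The untimed SOX17KO library had 39 NK cells, with 2 UMIs of Slc2a3 and 14 of Ero1l in them.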

How the results depend on the processing

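Counts below are members past the adjusted p of 0.05. Of the class contrasts, those of Arg1-high cells and of neutrophils stayed within 1.5 times their main count under every alternative run. With no replicate block (pairing by library left out) monocytes against Arg1-low macrophages gave 4 (10 with it), cycling against non-cycling CD8 T cells 0 (12) and regulatory against other CD4 T cells 0 (3); the last gave 5 with upper-quartile scaling and 5 with no filter. Without single libraries the ranges were 28 to 30 for Arg1-high against Arg1-low macrophages, 19 to 24 against Cxcl9-expressing, 29 to 30 for C1q-low phagocytes, 17 to 25 for neutrophils, 8 to 13 for monocytes, 8 to 15 for cycling cells, 16 to 22 for mature regulatory dendritic cells, 20 to 29 for phagocytes against T cells and 1 to 5 for regulatory T cells.

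Collection counts moved most. No replicate block gave Arg1-low macrophages 1 (2 with it), T cells 0 (1), fibroblasts 0 (4), neutrophils 2 (8) and regulatory T cells 0 (2). Upper-quartile scaling gave NK cells 1 (2). No filter gave T cells 3, all gated cells 8 (3), dendritic cells 1, fibroblasts 11, phagocytes 2, neutrophils 4, remaining T cells 4, remaining phagocytes 2 and regulatory T cells 1. DESeq2 gave Arg1-low macrophages 1, Cxcl9-expressing 1 (2), monocytes 6 (15), NK cells 1, T cells 2, all gated cells 9, neutrophils 1, remaining T cells 1, remaining phagocytes 1 and regulatory T cells 0. At most 5% mitochondrial UMIs gave Arg1-low macrophages 1, fibroblasts 11, remaining T cells 1 and regulatory T cells 0. The stricter gate gave Arg1-high macrophages 5 (3), NK cells 6, mature regulatory dendritic cells 5 (0), remaining phagocytes 6, regulatory T cells 0 and type 2 dendritic cells 2 (0). With the timed libraries alone the counts were NK cells 6, T cells 5, all gated cells 13, dendritic cells 4, mature regulatory 1, phagocytes 5, remaining T cells 8, remaining phagocytes 6, regulatory T cells 4, type 1 dendritic cells 1 and type 2 dendritic cells 1. Without the top 5% of UMI totals they were Arg1-high macrophages 5, Arg1-low 1, NK cells 6, mature regulatory 5, remaining T cells 1 and regulatory T cells 0. Without single libraries they were 0 to 2 in remaining T cells, 0 to 1 in T cells, phagocytes, remaining phagocytes and regulatory T cells, and 0 in NK, all gated and dendritic cells and the 3 dendritic classes. The cause of these moves was not tested. Classes fitted on 2 collections had no residual degrees of freedom left for this.

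In the genotype comparison no filter gave CD8 T cells 1, T cells 2 and other CD4 T cells 3 (each 0 in the main fit), and leaving out the top 5% gave gamma-delta T cells 1; without single pairs the range was 0 to 1 in remaining T cells and 0 elsewhere, and with no replicate block no call was gained. The difference between T cells and phagocytes gave 0 under each. Signs turned for Ldha in NK cells (-0.000741 to 0.298 over the pairs left out), Bnip3l (-0.0562 to 0.126) and Hk1 (-0.101 to 0.12) in phagocytes, each without the 2-week pair, for Hif1a in all gated cells (-0.132 to 0.0104) without the 1-week pair, and for Ankrd37 in dendritic cells (0.0708) and Bnip3l in phagocytes (-0.0223) with the stricter gate, and Bnip3l in phagocytes (-0.0234) without the top 5%. With mitochondrial, ribosomal, immunoglobulin and haemoglobin UMIs left out of the total, the summed mean level of the members moved by more than 1 SD over libraries in 9 classes, to 16007 CPM in C1q-low phagocytes, 13959.9 in Arg1-high macrophages, 6684 in monocytes, 6460.5 in mast cells and basophils, 5532 in remaining T cells, 4000.2 in gamma-delta T cells, 3865 in NK cells, 3061 in innate lymphoid cells and 2420.5 in B cells.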
